A study of Mus musculus with 36 samples.

Results

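Kidney cortex of diabetic mice treated with lipoxin A4 (LXA4) was compared with kidney cortex of nondiabetic mice given vehicle. The aim was to describe what differed from nondiabetic vehicle tissue in diabetic mice that received LXA4. The groups differed in both diabetes and LXA4, whose parts cannot be told apart in this comparison. The comparison used 12 of the 36 libraries of the series, chosen by their labels, with 6 libraries per group, and covered the 15726 of 15730 genes in the count table that passed the filter on low counts. All mice were male and lacked functional apolipoprotein E (ApoE−/−, C57BL/6 background), a change that makes mice prone to atherosclerosis, so no group was wild type. The diabetic LXA4 mice had received streptozotocin, a toxin of pancreatic beta cells, at 6 weeks of age in 5 daily doses of 55 mg/kg, and then LXA4 at 5 µg/kg 2 times a week. Diabetic vehicle mice, which had 6 further libraries, received the same streptozotocin course and 0.1% ethanol. Nondiabetic vehicle mice received 0.1% ethanol and no streptozotocin. The protocols set out a study of 16 weeks in which treatment began at week 10 and ended at week 16, but do not tie these libraries to it by name. Nor do the labels say that each library is a separate mouse, so the p-values measure the spread between these samples, which may in part be technical.

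LXA4 is a lipid mediator that cells make from arachidonic acid through lipoxygenases, and it is known for limiting neutrophil recruitment and for promoting the resolution of inflammation through the receptor FPR2. Streptozotocin enters cells through the glucose transporter GLUT2, which renal proximal tubule cells also carry, and it alkylates DNA. DNA damage activates p53, a transcription factor whose targets include cell cycle inhibitors, regulators of apoptosis and its own inhibitor Mdm2. In long-standing hyperglycaemia the kidney cortex is known for tubular stress, growth of tubules and deposition of matrix.

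Total counts ran from 8896193 to 35906294 in the diabetic LXA4 libraries, from 18009386 to 33541143 in the diabetic vehicle libraries and from 10086698 to 32657959 in the nondiabetic vehicle libraries. The sixth diabetic LXA4 library (DL6) and the third nondiabetic vehicle library (CE3) stood apart. Structural RNA genes (ribosomal, small nuclear and the like) made up 56.9% of all counts in DL6 and 17.7% in CE3, against at most 6.81% in the other 34 libraries of the series. DL6 listed 884 genes at 0 and CE3 listed 144, where no other library listed more than 37. Mitochondrial ribosomal RNA made up 0.394% of the counts of DL6 and 8.5% to 12.5% of those of the other diabetic LXA4 libraries. Where the call of a gene named here was lost without both libraries, the value without them is given beside it. Kidney cortex was checked with 35 proximal tubule markers, all of which were measured, and Lrp2 (megalin), the endocytic receptor of the proximal tubule brush border, stood at 3541 to 5352 normalised read counts (CPM, counts scaled to the library total) in diabetic LXA4 cortex and at 4327 to 6274 CPM in nondiabetic vehicle cortex. The disrupted gene Apoe was at 2.65 CPM in diabetic LXA4, 2.14 CPM in diabetic vehicle and 2.15 CPM in nondiabetic vehicle cortex on average.

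Diabetic LXA4 cortex differed from nondiabetic vehicle cortex in 1370 of 15726 genes (8.71%) at an adjusted p under 0.05, by edgeR's quasi-likelihood test on all 36 libraries. Of these, 660 were higher (4.2% of genes tested) and 710 were lower (4.51%). The median log2 difference over all genes was 0.02. The CPM ranges of the 6 diabetic LXA4 and the 6 nondiabetic vehicle libraries did not overlap for 389 genes, or 2.47% of those tested. Without DL6 and CE3 the count was 1770, with 754 higher and 1016 lower, and 1017 genes were called both with and without these libraries. The same test gave 881 genes (5.6%) for diabetic vehicle against nondiabetic vehicle cortex, and 56 genes (0.356%) for diabetic LXA4 against diabetic vehicle cortex. These comparisons share libraries with the main one, so their values stand side by side only. The 56 calls became 0 by edgeR without the second diabetic vehicle library, when 2173 genes had an unadjusted p under 0.05. The number of calls depended on the libraries in the fit. It was 2431 without DL6, 772 without the fifth nondiabetic vehicle library, 708 without the sixth, and 120 when only the 12 libraries compared were fitted.

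**Figure D1:**
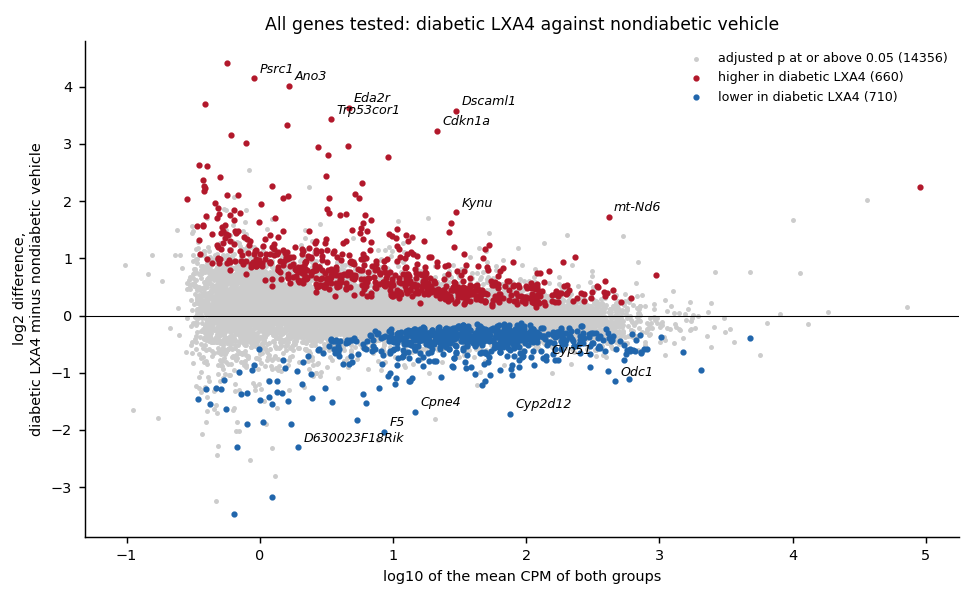
Each point is 1 gene, with the log10 of its mean CPM over both groups on the x axis and its log2 difference, diabetic LXA4 minus nondiabetic vehicle, on the y axis. Red points are the 660 genes called higher and blue points the 710 called lower, and among labelled genes Psrc1, Ano3, Eda2r, Dscaml1, Trp53cor1 and Cdkn1a lie above a difference of 3.

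Of the 42 gene lists described, the p53 targets had the largest share of members called, at 56.8%. Of 37 measured p53 target genes, 20 were higher and 1 was lower in diabetic LXA4 cortex, beside 4.2% and 4.51% of all genes, and the median log2 difference of the list was 0.56. The 20 higher members came to 21 without DL6 and CE3, to 16 in the fit of the 12 libraries alone, and to 20 to 23 when any 1 library was left out. In diabetic vehicle cortex 18 members were higher and 0 lower against the same nondiabetic vehicle libraries by edgeR, with a median of 0.47. No member differed between diabetic LXA4 and diabetic vehicle cortex at the threshold, and the median difference there was 0.01.

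Cdkn1a, the gene of the cell cycle inhibitor p21 (GRCm38 chromosome 17, 29090976 to 29100727, plus strand), had 27.6, 39.1 and 50.6 CPM as its lowest, median and highest values in diabetic LXA4 cortex, against 2.75, 3.73 and 6.59 CPM in nondiabetic vehicle cortex. Every diabetic LXA4 library lay above every nondiabetic vehicle library. The log2 difference was 3.23 (SE 0.256, adjusted p = 9.15e-11, edgeR), a 9.38-fold higher level, and diabetic vehicle cortex averaged 38.6 ± 8.11 CPM (SD, n = 6). Trp53cor1, the neighbouring long noncoding RNA also called lincRNA-p21, lies on the minus strand of the same chromosome from 29057430 to 29079179. It had 3.07, 6.53 and 8.24 CPM in diabetic LXA4 cortex, against 0.229, 0.596 and 0.787 CPM in nondiabetic vehicle cortex, with a log2 difference of 3.43 (SE 0.232, adjusted p = 4.38e-12). The ranges did not overlap, and the lowest diabetic LXA4 value was that of DL6. Against diabetic vehicle cortex, the log2 difference of Trp53cor1 was 0.17 (adjusted p = 0.676) and that of Cdkn1a was 0.01 (adjusted p = 0.996).

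Eda2r, a receptor of the tumour necrosis factor family that binds ectodysplasin A2, had 0.945, 9.75 and 11.7 CPM in diabetic LXA4 cortex, against 0.458, 0.73 and 0.793 CPM in nondiabetic vehicle cortex. The value of 0.945 CPM was that of DL6, just above the highest nondiabetic value, and the other diabetic LXA4 libraries lay between 8.85 and 11.7 CPM. The log2 difference was 3.63 with all libraries (SE 0.268, adjusted p = 1.97e-11) and 3.75 without DL6 and CE3. Psrc1, a spindle-associated protein, had 1.12, 1.69 and 2.6 CPM in diabetic LXA4 cortex, against 0, 0.0619 and 0.194 CPM in nondiabetic vehicle cortex. Its log2 difference was 4.15 (SE 0.361, adjusted p = 7.97e-10), and its highest diabetic LXA4 value was that of DL6. Gtse1, a microtubule-binding protein made in S and G2 phase, averaged 2.66 CPM in diabetic LXA4, 2.67 CPM in diabetic vehicle and 0.613 CPM in nondiabetic vehicle cortex (log2 difference from nondiabetic vehicle 2.09, adjusted p = 3.03e-05).

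Among regulators of p53 and of survival, Mdm2, the ubiquitin ligase that restrains p53, averaged 81.2 CPM in diabetic LXA4, 78.6 CPM in diabetic vehicle and 56.9 CPM in nondiabetic vehicle cortex (log2 0.51, adjusted p = 8.16e-06). Zmat3, an RNA-binding zinc finger protein, rose by 0.84 on the log2 scale (adjusted p = 3.42e-07) with no overlap between 43.4 to 75.6 CPM in diabetic LXA4 and 32.9 to 41.9 CPM in nondiabetic vehicle cortex. Plk2, a polo-like kinase, rose by 1.01 (adjusted p = 5.83e-06), and the nuclease gene Aen rose by 0.93 (adjusted p = 9.36e-06). Tnfrsf10b, a death receptor for the ligand TRAIL, rose by 1.09 (adjusted p = 2.47e-05). Gdf15, a secreted stress cytokine of the TGF-beta superfamily, had 6.03 to 15.2 CPM in diabetic LXA4 cortex, against 2.28 to 4.92 CPM in nondiabetic vehicle cortex (log2 1.48, adjusted p = 0.000124). In the same group of genes, Ccng1 (cyclin G1) rose by 0.93 (adjusted p = 8.17e-05), with DL6 at 406 CPM above 160 to 242 CPM in the other diabetic LXA4 libraries.

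DL6 also carried the highest diabetic LXA4 values of other p53 targets, among them Phlda3 and Bbc3. Phlda3, an inhibitor of AKT signalling, had 6.47, 9.3 and 51.9 CPM in diabetic LXA4 cortex, against 1.32, 1.71 and 5.61 CPM in nondiabetic vehicle cortex, where 51.9 was DL6 and 5.61 was CE3. Its log2 difference was 2.78 (SE 0.473, adjusted p = 0.0004), and 2.38 (adjusted p = 7.06e-05) without both libraries. Bbc3 (PUMA), an apoptosis-promoting BCL2 family member, was at 13.9 CPM in DL6 and at 2.27 to 3.41 CPM in the other diabetic LXA4 libraries. Its log2 difference was 1.14 (adjusted p = 0.0213), or 0.72 (adjusted p = 0.0147) without both libraries. Perp, a membrane protein of desmosomes, was the member called lower, by 0.33 on the log2 scale (−0.33, adjusted p = 0.0161), and its adjusted p was 0.0609 without both libraries. Other known p53 targets missed the threshold, among them Bax at 0.06 (adjusted p = 0.894), Fas at 0.34 (adjusted p = 0.163), and Pmaip1 at 0.47 (adjusted p = 0.144). Bax was at 25.9 CPM in CE3 and 20.3 CPM in DL6, against 9.31 CPM and 11.6 CPM in the next library of each group. Fas was at 8.26 CPM in DL6, and the next lowest diabetic LXA4 library was at 17.9 CPM. Missing the threshold with these libraries in the fit does not show that Bax or Fas was unchanged.

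**Figure D2:**
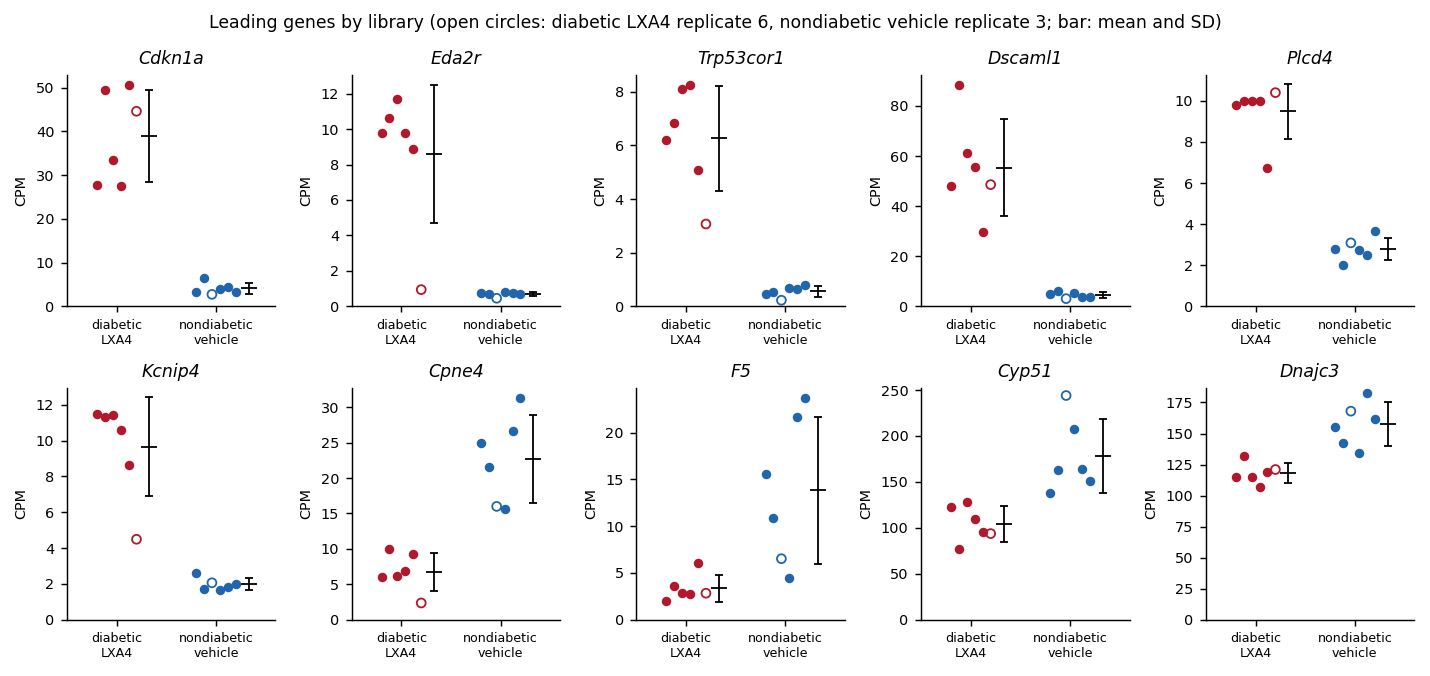
CPM in each of the 6 diabetic LXA4 (red) and 6 nondiabetic vehicle (blue) libraries for 10 genes of the report, with the group mean and SD as bars and DL6 and CE3 as open circles. The groups lie apart for all of these genes except F5, and DL6 is the low diabetic LXA4 point of Eda2r, at 0.945 CPM.

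Several leading rises lay outside that list. Dscaml1, an immunoglobulin-domain protein of cell contacts, had 29.7, 52.2 and 88.3 CPM in diabetic LXA4 cortex, against 3.09, 4.54 and 6.34 CPM in nondiabetic vehicle cortex. Its log2 difference was 3.58 (SE 0.26, adjusted p = 1.78e-11), and diabetic vehicle cortex averaged 36 ± 16.3 CPM, which did not differ from diabetic LXA4 cortex at the threshold (log2 0.62, adjusted p = 0.201). Kcnip4, a calcium-binding partner of Kv4 potassium channels, averaged 9.67 CPM in diabetic LXA4, 11.6 CPM in diabetic vehicle and 1.99 CPM in nondiabetic vehicle cortex (log2 2.32, adjusted p = 7.97e-10). Ano3, of the anoctamin family, averaged 3.16 CPM in diabetic LXA4, 3.27 CPM in diabetic vehicle and 0.168 CPM in nondiabetic vehicle cortex (log2 4.02, adjusted p = 2.29e-09). Fam212b had 3.99 to 5.73 CPM in diabetic LXA4 cortex, against 0.251 to 1.36 CPM in nondiabetic vehicle cortex (log2 2.94, adjusted p = 7.28e-09). For each of these genes the lowest diabetic LXA4 library lay above the highest nondiabetic vehicle library. They were named for large differences or small p-values, so this separation follows in part from the choice. Of all genes 2.47% had no overlap in either direction.

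Plcd4, a phospholipase C, had 6.75, 9.99 and 10.4 CPM in diabetic LXA4 cortex, against 1.99, 2.75 and 3.65 CPM in nondiabetic vehicle cortex (log2 1.76, SE 0.14, adjusted p = 9.15e-11). The noncoding RNA Gm26542 had 27.7, 37.6 and 48.6 CPM in diabetic LXA4 cortex, against 12.4, 13.4 and 17 CPM in nondiabetic vehicle cortex (log2 1.46, SE 0.129, adjusted p = 1.01e-09). Both shared exon bases with genes on the opposite strand, 1601 bases with Zfp142 for Plcd4 and 186 bases with Ltc4s for Gm26542, and the strand setting of the counting is not given in the sources used here, so reads of such pairs cannot be told apart. Sh3rf3, which holds SH3 and RING finger domains, rose by 2.06 (adjusted p = 5.39e-06), and Ppp2r2c, a regulatory subunit of protein phosphatase 2A, rose by 2.27 (adjusted p = 5.39e-06). Adamtsl3, a secreted matrix protein, had 4.01, 9.15 and 11.9 CPM in diabetic LXA4 cortex, against 1.6, 1.92 and 2.43 CPM in nondiabetic vehicle cortex. Its log2 difference was 2.12 (SE 0.329, adjusted p = 9.96e-05), set beside 1.01 (adjusted p = 0.0608) for diabetic vehicle against nondiabetic vehicle cortex. Diabetic LXA4 and diabetic vehicle cortex differed in Adamtsl3 by 1.11 with an adjusted p of 0.116.

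Among the leading falls, the unnamed gene D630023F18Rik had 0, 0.582 and 1.03 CPM in diabetic LXA4 cortex, against 2.59, 3.41 and 3.69 CPM in nondiabetic vehicle cortex (log2 −2.30, SE 0.248, adjusted p = 1.1e-07). Cpne4, a calcium-dependent phospholipid-binding copine, had 2.36, 6.53 and 9.92 CPM in diabetic LXA4 cortex, against 15.6, 23.3 and 31.3 CPM in nondiabetic vehicle cortex (log2 −1.68, SE 0.236, adjusted p = 2.05e-05). Neither gene's ranges overlapped, but both genes were named for their large differences. F5, coagulation factor V, had 1.95, 2.83 and 6.07 CPM in diabetic LXA4 cortex, against 4.49, 13.2 and 23.7 CPM in nondiabetic vehicle cortex (log2 −2.03, adjusted p = 0.00103), and 1 nondiabetic library lay within the diabetic LXA4 range. Apoh, a phospholipid-binding plasma glycoprotein, had 1.39 to 3.21 CPM in diabetic LXA4 cortex, against 4.89 to 10.5 CPM in nondiabetic vehicle cortex (log2 −1.83, adjusted p = 0.00167). Crb1, a cell polarity protein, fell by 1.89 on the log2 scale (adjusted p = 0.000441), and the transcription factor gene Osr2 fell by 1.44 (adjusted p = 0.00084).

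Cyp2d12, a cytochrome P450 with close paralogs among which reads may be split, had 11.1, 32.2 and 66.2 CPM in diabetic LXA4 cortex, against 54.2, 98.2 and 208 CPM in nondiabetic vehicle cortex (log2 −1.72, adjusted p = 0.00121). Slc17a4, an anion transporter, fell by 1.51 (adjusted p = 0.00255). Igfbp1, a binding protein that limits insulin-like growth factors, had 2.06, 3.02 and 5.01 CPM in diabetic LXA4 cortex, against 3.66, 7.15 and 21.5 CPM in nondiabetic vehicle cortex (log2 −1.53, SE 0.384, adjusted p = 0.0125). The adjusted p of Igfbp1 was 0.0705 without the fifth nondiabetic vehicle library. Diabetic vehicle cortex averaged 7.43 ± 2.33 CPM of Igfbp1, a log2 difference of −0.32 from nondiabetic vehicle (adjusted p = 0.654), and diabetic LXA4 and diabetic vehicle cortex differed by −1.21 (adjusted p = 0.157).

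Of 36 measured cell cycle genes, 7 were higher and 0 lower by edgeR, a share of 19.4% against 8.71% of all genes. The median log2 difference was 0.42, and 33 members had a positive difference. Ccnd1 (cyclin D1), which drives entry into the cycle, had 159, 189 and 220 CPM in diabetic LXA4 cortex, against 87.3, 104 and 156 CPM in nondiabetic vehicle cortex, without overlap (log2 0.77, SE 0.145, adjusted p = 0.00127). Diabetic vehicle cortex averaged 229 ± 55.4 CPM of Ccnd1. Mki67, the proliferation antigen Ki-67, had 5.17 to 8.27 CPM in diabetic LXA4 cortex, against 1.72 to 4.74 CPM in nondiabetic vehicle cortex (log2 1.06, adjusted p = 0.0209). In diabetic vehicle against nondiabetic vehicle cortex 13 members were higher, with a median of 0.63, and the median difference between diabetic LXA4 and diabetic vehicle cortex was −0.24 with no member past the threshold. The count of 7 fell to 2 without the first diabetic LXA4 library and to 1 in the fit of the 12 libraries alone.

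Of 47 extracellular matrix genes, 4 were higher and 1 was lower, a share of 10.6% against 8.71% of all genes, with a median log2 difference of 0.38. Diabetic vehicle against nondiabetic vehicle cortex gave 7 higher and 0 lower members, with a median of 0.34. Mmp2, a gelatinase, averaged 3.59 CPM in diabetic LXA4, 4 CPM in diabetic vehicle and 1.68 CPM in nondiabetic vehicle cortex (log2 1.09, adjusted p = 0.00301). Fn1 (fibronectin) had 26.5, 37.3 and 56.9 CPM in diabetic LXA4 cortex, against 18.3, 20.7 and 32.1 CPM in nondiabetic vehicle cortex (log2 0.78, adjusted p = 0.0108). Col6a1, a chain of collagen VI, was at 60.7 CPM in DL6 and at 10.1 to 16.3 CPM in the other diabetic LXA4 libraries. Its log2 difference of 1.04 (adjusted p = 0.0203) had an adjusted p of 0.0562 without DL6, and was 0.54 (adjusted p = 0.0217) without both DL6 and CE3. Eln (elastin) was also called (log2 1.17, adjusted p = 0.033), with DL6 at 50.5 CPM and an adjusted p of 0.171 without DL6 and 0.109 without both (log2 0.56). Timp3, an inhibitor of matrix metalloproteinases that shares 1733 exon bases with Syn3 on the opposite strand, was the member called lower (log2 −0.63, adjusted p = 0.0215), with an adjusted p of 0.0584 without the fifth and 0.0698 without the sixth nondiabetic vehicle library. The count of higher members was 9 without DL6 and CE3, 10 without DL6, without CE3 or without the second diabetic LXA4 library, and 1 in the fit of the 12 libraries alone.

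Of 27 tubular injury genes, 5 were higher and 0 lower by edgeR, a share of 18.5% against 8.71% of all genes. The median was 0.40. The higher members were Cdkn1a and Gdf15, given above as p53 targets, the chemokine gene Cxcl1, Anxa3 and Vcam1. Cxcl1 was barely detected, at 0 to 1.39 CPM in diabetic LXA4 cortex, against 0 to 0.339 CPM in nondiabetic vehicle cortex (log2 1.88, adjusted p = 0.00845). Vcam1, an adhesion molecule of injured tubules and activated endothelium, had 5.19, 14.1 and 17.4 CPM in diabetic LXA4 cortex, against 6.8, 9.39 and 10.5 CPM in nondiabetic vehicle cortex. Its log2 difference of 0.58 (adjusted p = 0.0451) missed the threshold in 7 of the 12 fits that left out 1 library, with adjusted p-values up to 0.107. Anxa3 had an adjusted p of 0.0339, and of 0.098 without DL6, which was at 49.8 CPM, and 0.116 without DL6 and CE3. Without the fifth or the sixth nondiabetic vehicle library 3 members of the list were called. The list had 5 higher and 0 lower members in diabetic vehicle against nondiabetic vehicle cortex, with a median of 0.46.

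Of 37 interferon response genes, 9 were higher and 0 lower by edgeR, a share of 24.3% against 8.71% of all genes. A positive difference was found for 35 members, and the median was 0.46. In diabetic vehicle against nondiabetic vehicle cortex 2 were higher, with a median of 0.27. Oasl1, an oligoadenylate synthetase-like protein, had 2.17, 3.48 and 8.75 CPM in diabetic LXA4 cortex, against 1.4, 1.77 and 2.17 CPM in nondiabetic vehicle cortex (log2 1.27, SE 0.274, adjusted p = 0.00436). Its highest value came from the fifth diabetic LXA4 library (DL5). Irf7, a transcription factor that amplifies interferon induction, was at 44 CPM in DL5 and at 4.72 to 12.2 CPM in the other diabetic LXA4 libraries, against 5.02 to 7.77 CPM in nondiabetic vehicle cortex. The adjusted p of Irf7 was 0.0147 (log2 1.21) with all libraries and 0.14 without DL5.

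The same library carried other calls of the interferon list. Without DL5 the adjusted p of Mx2, a dynamin-like antiviral GTPase, was 0.0604 (0.0111 with it, log2 0.99), and that of Usp18, which removes the ubiquitin-like ISG15, was 0.0803 (0.0138 with it, log2 0.80). Tap1, a peptide transporter of antigen presentation that shares exon bases with Psmb9, was at 46.3 CPM in DL6 and at 9.86 to 14.1 CPM in the other diabetic LXA4 libraries, against 6.72 to 8.55 CPM in nondiabetic vehicle cortex. Its log2 difference was 1.07 (adjusted p = 0.00476) and 0.60 (adjusted p = 0.00406) without DL6 and CE3. Cxcl10, an interferon-induced chemokine, averaged 2.83 CPM in diabetic LXA4, 4.37 CPM in diabetic vehicle and 1.53 CPM in nondiabetic vehicle cortex (log2 from nondiabetic vehicle 0.91, adjusted p = 0.017). The list's count of 9 was 3 without DL5, 14 without DL6, 11 without DL6 and CE3, and 0 in the fit of the 12 libraries alone. Beside it, the summed level of 24 myeloid markers was 261 to 481 CPM in diabetic LXA4 cortex, against 245 to 347 CPM in nondiabetic vehicle cortex, with 0 members called by edgeR, and the part of these cells in the result was not tested.

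Among 44 complement and coagulation genes, 4 were higher and 3 lower, a share of 15.9% against 8.71% of all genes. The median was 0.18. The fit of the 12 libraries alone called 0 higher and 2 lower. Diabetic vehicle against nondiabetic vehicle cortex gave 5 higher and 2 lower, with a median of 0.27. Serpine2, a protease inhibitor, had 17.1, 19.4 and 24.8 CPM in diabetic LXA4 cortex, against 6.41, 10.4 and 16.5 CPM in nondiabetic vehicle cortex, without overlap (log2 0.90, SE 0.153, adjusted p = 0.000385). C4b, a complement component, had 4.01, 15.3 and 32.6 CPM in diabetic LXA4 cortex, against 3.78, 4.99 and 9.58 CPM in nondiabetic vehicle cortex (log2 1.51, SE 0.349, adjusted p = 0.00702), and diabetic vehicle cortex averaged 8.17 ± 1.57 CPM (log2 difference from nondiabetic vehicle 0.52, adjusted p = 0.405). Cfi, a protease that inactivates C3b and C4b, rose by 1.33 (adjusted p = 0.011). Besides F5, Serpinf2 (alpha-2-antiplasmin) was lower, at 128 CPM in diabetic LXA4, 123 CPM in diabetic vehicle and 218 CPM in nondiabetic vehicle cortex (log2 −0.77, adjusted p = 0.0113).

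Of 25 measured cholesterol synthesis genes, 10 were lower and 0 higher by edgeR, beside 4.51% and 4.2% of all genes. The median log2 difference was −0.43, and 1 member had a positive difference. In diabetic vehicle against nondiabetic vehicle cortex 3 were lower, with a median of −0.20. Between diabetic LXA4 and diabetic vehicle cortex the median was −0.18 and 0 members passed the threshold by edgeR. Cyp51, the lanosterol demethylase, had 76.6, 103 and 128 CPM in diabetic LXA4 cortex, against 138, 163 and 244 CPM in nondiabetic vehicle cortex. All 6 diabetic LXA4 values lay below all 6 nondiabetic values (log2 −0.77, SE 0.128, adjusted p = 0.000299). Diabetic vehicle cortex averaged 126 ± 19.5 CPM of Cyp51, and its log2 difference from diabetic LXA4 cortex was −0.27 (adjusted p = 0.295). Cyp51 lies on chromosome 5 at 4081145 to 4104746, minus strand, and shares 166 exon bases with Akap9.

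Genes of later steps of the pathway were among those called lower. Ebp, the sterol isomerase, had 12.8, 24 and 27.9 CPM in diabetic LXA4 cortex, against 31.9, 36 and 39.9 CPM in nondiabetic vehicle cortex (log2 −0.63, adjusted p = 0.00168). Nsdhl, a sterol dehydrogenase, had 19.8 to 34.5 CPM in diabetic LXA4 cortex, against 36.3 to 49 CPM in nondiabetic vehicle cortex (log2 −0.46, adjusted p = 0.0117). Msmo1, the methylsterol oxidase, had 11.1 to 14.7 CPM in diabetic LXA4 cortex, against 19.4 to 30.7 CPM in nondiabetic vehicle cortex (log2 −0.79, adjusted p = 0.0156). None of these 3 genes overlapped between the groups, and 2.47% of all genes did not. The 3 were named because they were called or after their values were seen. Diabetic vehicle cortex averaged 22.8 ± 2.86 CPM of Msmo1, which gave a log2 difference of −0.05 from nondiabetic vehicle cortex (adjusted p = 0.928) and of −0.74 between diabetic LXA4 and diabetic vehicle cortex (adjusted p = 0.11). Stard4, a carrier of cholesterol between membranes, fell by 0.55 on the log2 scale (adjusted p = 0.00403).

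Idi1, Tm7sf2, Insig2 and Acat2 were also called lower. Without DL6 and CE3 the adjusted p was 0.0618 for Idi1, 0.0788 for Tm7sf2, which shares 532 exon bases with Vps51, and 0.153 for Acat2. With 1 library left out, the call was lost in 5 of 12 fits for Tm7sf2, 6 for Insig2 and 8 for Acat2. Hmgcs1 missed the threshold at −0.48 (adjusted p = 0.0563). The count of 10 lower members was 10 without DL6 and CE3, 6 without CE3 alone, 12 without DL6 alone, and 1 in the fit of the 12 libraries alone. In RefSeq promoter windows of GRCm38.p6, from 250 bases before to 50 after each gene start, the letters TCACNCCAC, a form of the sterol regulatory element, were found on either strand in 408 of 32851 windows (1.24%). Of 18 members found in RefSeq, 1 held it, Hmgcs1, and 0 of the 8 called lower did.

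**Figure D3:**
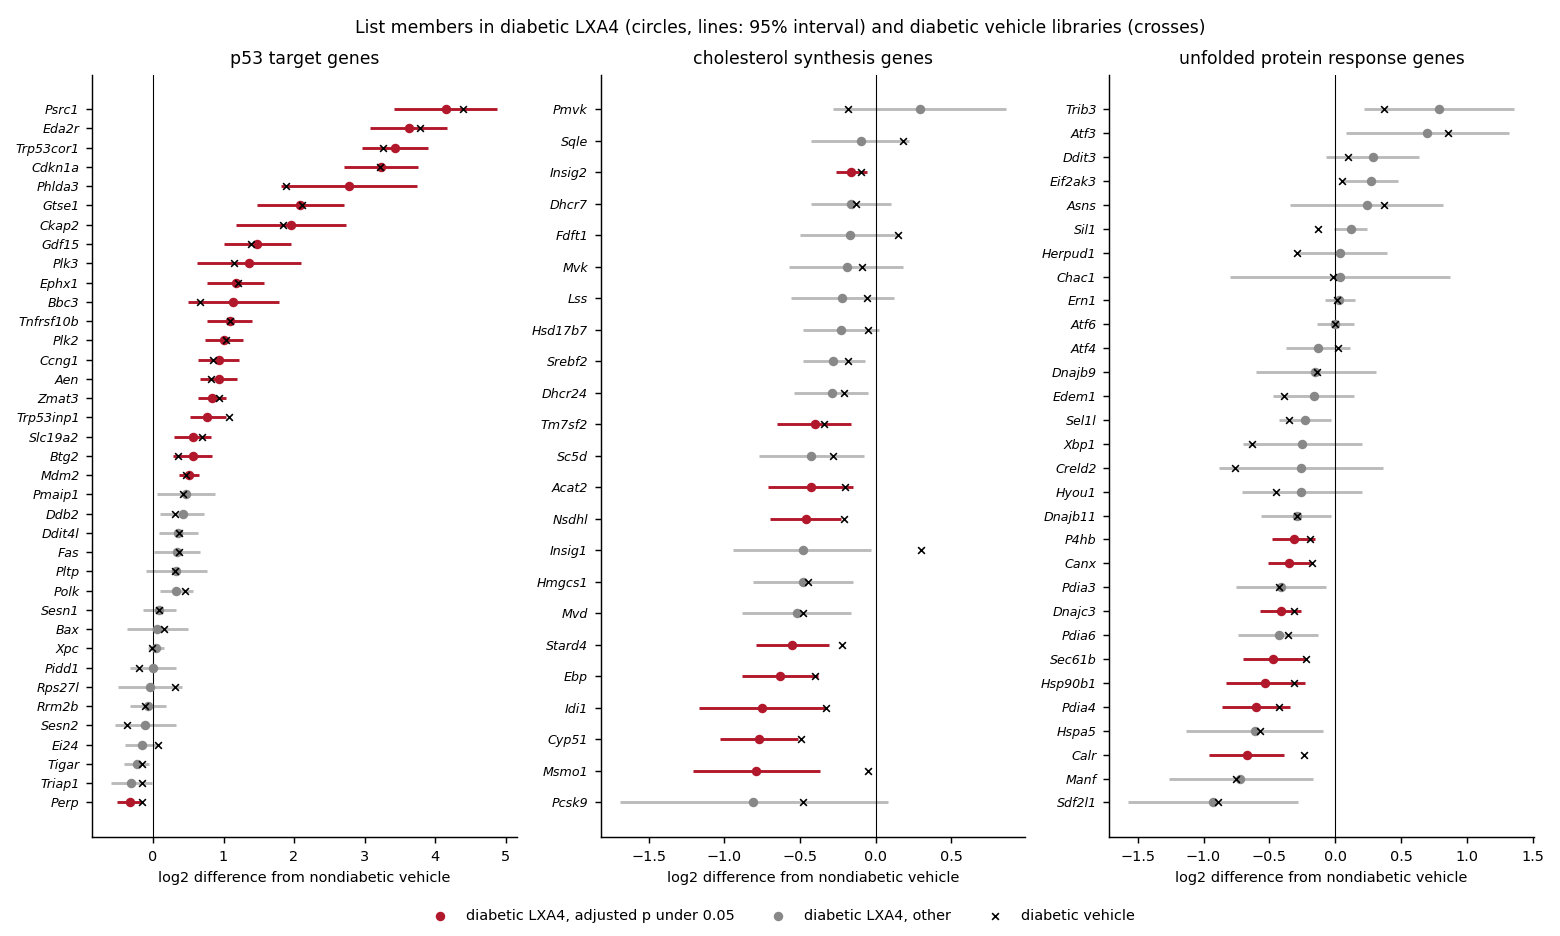
Log2 difference from nondiabetic vehicle cortex of measured members of the p53 target, cholesterol synthesis and unfolded protein response lists, for diabetic LXA4 (circles with 95% intervals, red where the adjusted p was under 0.05) and for diabetic vehicle (crosses). Among the cholesterol synthesis genes drawn 1 circle, Pmvk, lies above 0, and of the 37 p53 targets 29 do.

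The unfolded protein response supplies chaperones and folding enzymes to the endoplasmic reticulum. Of 30 members of its list, 7 were lower and 0 higher by edgeR, a share of 23.3% against 8.71% of all genes. The median of the list was −0.25. The list's median was −0.26 for diabetic vehicle against nondiabetic vehicle cortex, where 3 members were lower, and 0.00 for diabetic LXA4 against diabetic vehicle cortex. Promoters of this family are known to hold the endoplasmic reticulum stress response element, written here as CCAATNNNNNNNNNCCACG and searched on both strands, whose first letters are a CCAAT box. It was found in 39 of 32851 RefSeq windows (0.119%), in 7 of the 26 list members found in RefSeq, and in 4 of the 7 called lower. Those 4 are shown with Hspa5 (BiP), the best-known gene of the response, to show the shared letters, in capitals, between genes that moved and one that did not pass the threshold. Each stretch is read 5′ to 3′ on the strand of its gene, and the matches to Calr and the second of Hsp90b1 are on the opposite strand.
Dnajc3: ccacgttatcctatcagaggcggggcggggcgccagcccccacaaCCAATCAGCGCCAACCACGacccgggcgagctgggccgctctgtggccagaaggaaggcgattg
Calr: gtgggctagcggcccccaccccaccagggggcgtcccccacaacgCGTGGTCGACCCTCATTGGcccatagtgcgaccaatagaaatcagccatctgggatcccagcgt
Canx: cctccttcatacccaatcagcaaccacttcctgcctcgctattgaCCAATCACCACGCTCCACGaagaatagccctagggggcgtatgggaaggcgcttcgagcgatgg
Hsp90b1: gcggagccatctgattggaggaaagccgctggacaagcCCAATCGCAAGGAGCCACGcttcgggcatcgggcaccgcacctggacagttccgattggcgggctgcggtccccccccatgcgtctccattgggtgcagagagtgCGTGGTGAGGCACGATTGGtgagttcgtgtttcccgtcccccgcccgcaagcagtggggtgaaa
Hspa5: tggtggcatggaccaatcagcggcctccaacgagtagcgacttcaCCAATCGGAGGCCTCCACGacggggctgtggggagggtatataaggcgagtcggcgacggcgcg

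The windows are chr14:118937782-118937890 on the plus strand for Dnajc3, chr8:84847030-84847138 on the minus strand for Calr, chr11:50325755-50325863 on the minus strand for Canx, chr10:86705488-86705694 on the minus strand for Hsp90b1 and chr2:34771980-34772088 on the plus strand for Hspa5, in GRCm38.p6. A match describes these letters only, and binding was not measured.

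Dnajc3, a cochaperone that restrains the kinase PERK, had 107, 117 and 132 CPM in diabetic LXA4 cortex, against 134, 158 and 183 CPM in nondiabetic vehicle cortex, without overlap (log2 −0.41, SE 0.0756, adjusted p = 0.00102). Calr (calreticulin), a calcium-binding chaperone of glycoproteins, had 189, 225 and 302 CPM in diabetic LXA4 cortex, against 251, 376 and 496 CPM in nondiabetic vehicle cortex (log2 −0.67, SE 0.139, adjusted p = 0.00285), and 1 diabetic LXA4 library reached into the nondiabetic range. Diabetic vehicle cortex averaged 313 ± 54.8 CPM of Calr, a difference of −0.24 from nondiabetic vehicle (adjusted p = 0.319). Pdia4, a disulfide isomerase, fell by 0.60 (adjusted p = 0.00425), Canx (calnexin) by 0.35 (adjusted p = 0.0087), and Hsp90b1 (GRP94), which shares 270 exon bases with 1810014B01Rik, by 0.53 (adjusted p = 0.0215). The call of Hsp90b1 was lost in 3 of the 12 fits without 1 library, with adjusted p-values of 0.0888 and 0.0582 without the fifth and the sixth nondiabetic vehicle library and 0.0523 without the fourth diabetic LXA4 library. Sec61b, of the protein translocation channel, was also lower, and so was the disulfide isomerase P4hb, whose adjusted p was 0.0158, or 0.0597 and 0.0628 without the fifth and the sixth nondiabetic vehicle library.

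Hspa5 averaged 267 CPM in diabetic LXA4, 275 CPM in diabetic vehicle and 407 CPM in nondiabetic vehicle cortex, and its log2 difference was −0.61 (adjusted p = 0.12). DL6 was its highest diabetic LXA4 library at 484 CPM. Without DL6 and CE3 the difference was −0.76 (adjusted p = 0.0484). The list's count of 7 was 11 without both libraries, 14 without DL6 alone, 5 without the fifth or the sixth nondiabetic vehicle library, and 0 in the fit of the 12 libraries alone.

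Of 47 oxidative phosphorylation genes encoded in the nucleus, 10 were lower and 0 higher by edgeR, a share of 21.3% against 8.71% of all genes. A positive difference was found for 3 members, and the median was −0.30, which was −0.23 without DL6 and CE3. Ndufs8, a subunit of complex I, averaged 37.9 CPM in diabetic LXA4, 43.4 CPM in diabetic vehicle and 52.7 CPM in nondiabetic vehicle cortex (log2 −0.46, adjusted p = 0.00931, and −0.26 without both libraries). Ndufa8, of the same complex, was at 134 CPM in CE3 and at 53.1 to 69.8 CPM in the other nondiabetic libraries, and its log2 difference was −0.55 (adjusted p = 0.0133) with all libraries and −0.28 (adjusted p = 0.0428) without both. Sdha, a subunit of complex II, fell by 0.30 (adjusted p = 0.0247), a call lost without the fifth or the sixth nondiabetic vehicle library (adjusted p = 0.0758 and 0.0799) or without DL5 (0.0503). The count of 10 was 33 without DL6, 14 without DL6 and CE3, 5 without the fifth or the sixth nondiabetic vehicle library, and 0 in the fit of the 12 libraries alone. In diabetic vehicle against nondiabetic vehicle cortex 0 members were called by edgeR and the median was −0.17.

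Of 37 fatty acid oxidation genes, 6 were lower and 0 higher by edgeR, a share of 16.2% against 8.71% of all genes. The median was −0.15. Diabetic vehicle against nondiabetic vehicle cortex gave 5 lower and 0 higher members, with a median of −0.23. Echs1 (enoyl-CoA hydratase), which shares exon bases with Paox, had 88.7, 99.9 and 103 CPM in diabetic LXA4 cortex, against 103, 120 and 162 CPM in nondiabetic vehicle cortex (log2 −0.34, adjusted p = 0.00921). Acadm, the medium-chain acyl-CoA dehydrogenase, fell by 0.45 (adjusted p = 0.0146), and Ehhadh, a peroxisomal bifunctional enzyme, by 0.52 (adjusted p = 0.0219). The adjusted p of Ehhadh was 0.053 without DL6 and CE3, 0.0758 and 0.0859 without the fifth and the sixth nondiabetic vehicle library, and the list without DL6 and CE3 had 3 lower members. It also had 3 without the fifth or the sixth nondiabetic vehicle library, and 0 in the fit of the 12 libraries alone.

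Of 35 proximal tubule markers, 34 had a negative difference, the median was −0.45, and 4 were lower and 0 higher by edgeR, a share of 11.4% against 8.71% of all genes. The summed level was 25572 to 41381 CPM in diabetic LXA4 cortex, against 35779 to 55233 CPM in nondiabetic vehicle cortex. In bulk cortex, fewer cells of a type and less RNA per cell cannot be told apart. Slc7a13, an amino acid transporter of the late proximal tubule, had 270, 466 and 539 CPM in diabetic LXA4 cortex, against 602, 689 and 776 CPM in nondiabetic vehicle cortex (log2 −0.68, SE 0.2, adjusted p = 0.0305), and its adjusted p was 0.09 without DL6 and CE3. Miox, which breaks down myo-inositol, fell by 0.64 (adjusted p = 0.0203), and Lrp2 fell by 0.39 (adjusted p = 0.0384, or 0.0818 without both libraries). No proximal tubule marker was called without the fifth or without the sixth nondiabetic vehicle library, and 15 were called without the fourth. In diabetic vehicle against nondiabetic vehicle cortex 4 were lower, with a median of −0.38.

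Of 20 genes known to be higher in male than in female mouse kidney, 5 were lower and 0 higher by edgeR (25%, against 8.71% of all genes). The median was −0.52, and the corresponding values for diabetic vehicle cortex were 5 lower and −0.60. Odc1, the first enzyme of polyamine synthesis, had 184, 260 and 454 CPM in diabetic LXA4 cortex, against 429, 635 and 856 CPM in nondiabetic vehicle cortex (log2 −1.15, SE 0.315, adjusted p = 0.0205). Cyp4b1, a cytochrome P450, averaged 1387 CPM in diabetic LXA4, 1331 CPM in diabetic vehicle and 2684 CPM in nondiabetic vehicle cortex (log2 −0.95, adjusted p = 0.017). Timd2, a ferritin receptor in mouse, had 20.3 to 33.3 CPM in diabetic LXA4 cortex, against 33.9 to 56.7 CPM in nondiabetic vehicle cortex, without overlap (log2 −0.69, adjusted p = 0.0139). Cyp2d9 (log2 −0.66, adjusted p = 0.0176) and Slc7a13 were the others. The adjusted p of Cyp2d9 was 0.0539 without DL6 and CE3, when 3 members of the list were called, and 0.062 without the fifth nondiabetic vehicle library. The fit of the 12 libraries alone called 1 member of the list lower. Of 12 genes known to be higher in females, 3 were lower too, among them Cyp2d12, and 0 were higher by edgeR. Their median was −0.28, and 4 had a positive difference. The count of 3 was 1 to 4 when 1 library was left out, 2 without DL6 and CE3, and 0 in the fit of the 12 libraries alone. Whether the male and female lists moved together or apart was not tested.

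Of 31 organic ion transporter genes, 1 was higher and 2 were lower (9.68%). Of 19 renin-angiotensin and kinin genes, 1 was higher and 1 lower (10.5%), and of 20 loop of Henle and distal convoluted tubule markers 1 was higher (5%). Over all genes the share called was 8.71%, so the members named here stand as single genes. Slc22a18, an organic cation transporter family member, had 208 to 264 CPM in diabetic LXA4 cortex, against 265 to 420 CPM in nondiabetic vehicle cortex (log2 −0.53, adjusted p = 0.00257). Ace, the angiotensin-converting enzyme, fell by 0.62 (adjusted p = 0.0223, and 0.0527 and 0.0697 without the fifth and the sixth nondiabetic vehicle library). Bdkrb2, the bradykinin B2 receptor, had 0.945 to 2.21 CPM in diabetic LXA4 cortex, against 0.541 to 0.915 CPM in nondiabetic vehicle cortex (log2 1.19, adjusted p = 0.00495). The value of 0.945 CPM was that of DL6, where so low a level rests on few reads. The log2 difference of Bdkrb2 was 1.29 (adjusted p = 0.00359) without DL6 and CE3. Klhl3, an adaptor of the ubiquitin ligase that degrades WNK kinases in the distal convoluted tubule, had 165, 192 and 221 CPM in diabetic LXA4 cortex, against 132, 145 and 156 CPM in nondiabetic vehicle cortex (log2 0.42, SE 0.0897, adjusted p = 0.00414). It averaged 159 ± 18.7 CPM in diabetic vehicle cortex.

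**Figure D4:**
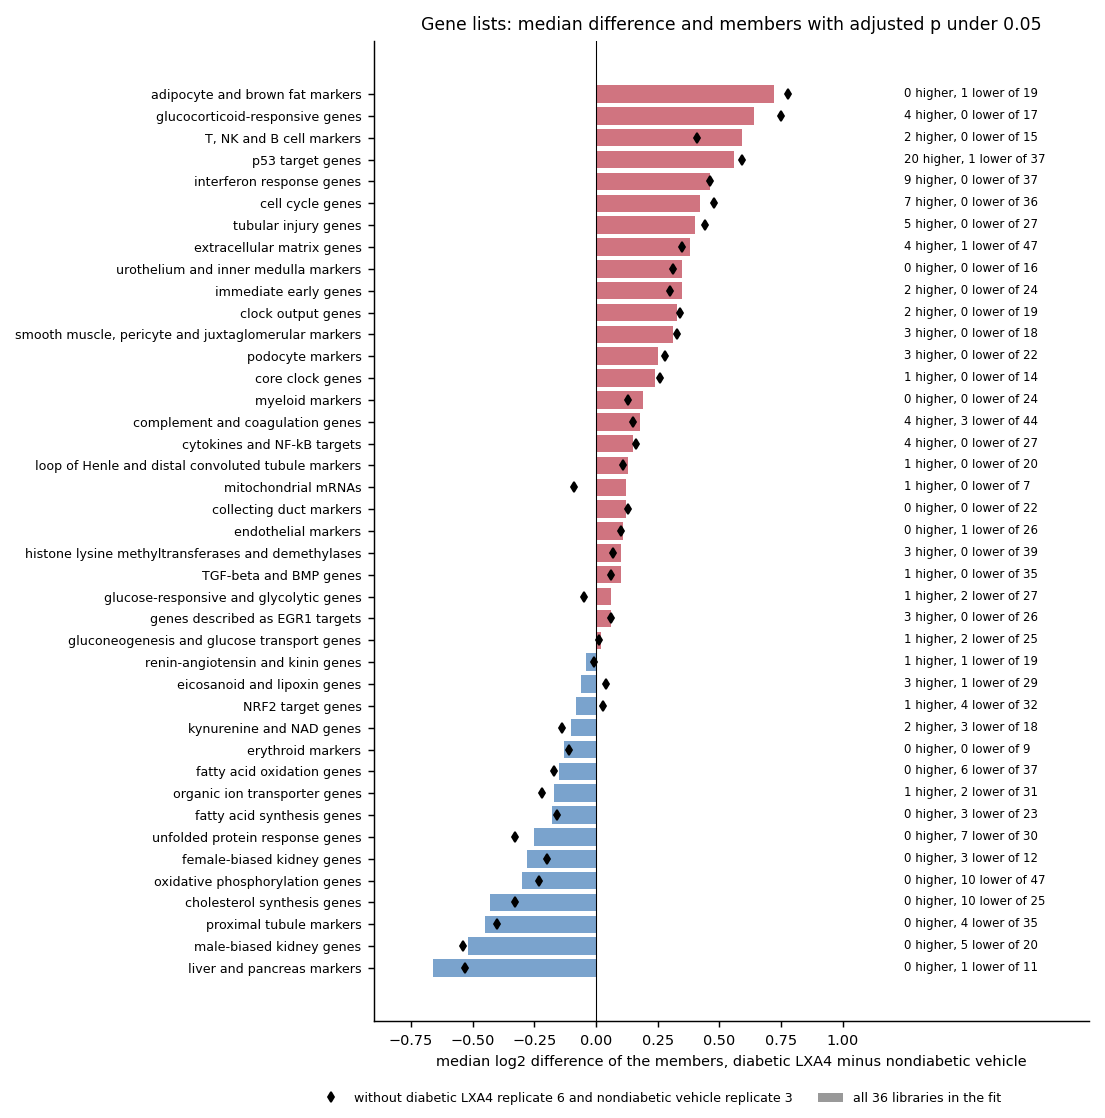
Median log2 difference of the measured members of each gene list, diabetic LXA4 minus nondiabetic vehicle cortex (bars), and the same without DL6 and CE3 (diamonds), with the numbers of members called higher and lower at the right. The p53 target genes have a median of 0.56 with 20 higher, and the cholesterol synthesis genes one of −0.43 with 10 lower.

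The pathway to which LXA4 itself belongs was described with 29 measured enzymes and receptors of eicosanoids and lipoxins, of which 3 were higher and 1 was lower, a share of 13.8% against 8.71% of all genes, with a median of −0.06. Ltc4s, the leukotriene C4 synthase, had 5.09, 7.9 and 14.9 CPM in diabetic LXA4 cortex, against 1.74, 2.51 and 5.49 CPM in nondiabetic vehicle cortex (log2 1.53, SE 0.223, adjusted p = 3.26e-05). The highest values, 14.9 and 5.49, were those of DL6 and CE3, and the log2 difference was 1.56 without them. Ltc4s overlaps Gm26542, as given above. Ephx1, the microsomal epoxide hydrolase, averaged 67.4 CPM in diabetic LXA4, 69.2 CPM in diabetic vehicle and 30.1 CPM in nondiabetic vehicle cortex (log2 1.17, adjusted p = 0.000334). Ptgis, the prostacyclin synthase, rose by 0.75 (adjusted p = 0.0128). Cyp2j5, an arachidonic acid epoxygenase of mouse kidney, had 276, 686 and 735 CPM in diabetic LXA4 cortex, against 684, 942 and 1099 CPM in nondiabetic vehicle cortex (log2 −0.59, adjusted p = 0.0183, and 0.0534 and 0.0527 without the fifth and the sixth nondiabetic vehicle library).

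In tryptophan breakdown, Kynu (kynureninase) had 8.74, 43.6 and 81.8 CPM in diabetic LXA4 cortex, against 8.52, 9.59 and 23.3 CPM in nondiabetic vehicle cortex (log2 1.81, SE 0.408, adjusted p = 0.006), with wide spread in the diabetic LXA4 libraries and some overlap. Acmsd, which diverts the pathway away from NAD synthesis, had 29.5, 52.6 and 75.7 CPM in diabetic LXA4 cortex, against 75.5, 99.1 and 134 CPM in nondiabetic vehicle cortex (log2 −0.94, SE 0.216, adjusted p = 0.00687). In diabetic vehicle cortex Acmsd averaged 77.6 ± 23.4 CPM, a log2 difference of −0.38 from nondiabetic vehicle (adjusted p = 0.305). Of 18 kynurenine and NAD genes, 2 were higher and 3 lower, a share of 27.8% against 8.71% of all genes. The lower members came to 1 without the sixth nondiabetic vehicle library or without DL5, and to 4 without DL6 and CE3. The fit of the 12 libraries alone called 0 members of this list in either direction. Of 17 glucocorticoid-responsive genes, 4 were higher and 0 lower by edgeR, a share of 23.5% against 8.71% of all genes. The median was 0.64, and Cdkn1a, given above as a p53 target, was among the higher members. The list's count of 4 was 2 to 6 when 1 library was left out, 4 without DL6 and CE3, and 2 in the fit of the 12 libraries alone. Fkbp5, a cochaperone of the glucocorticoid receptor, had 226, 290 and 449 CPM in diabetic LXA4 cortex, against 123, 152 and 183 CPM in nondiabetic vehicle cortex, without overlap (log2 1.02, SE 0.275, adjusted p = 0.0187), and its adjusted p was 0.0531 without DL6 and CE3.

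Egr1, an immediate early transcription factor, did not pass the threshold against nondiabetic vehicle cortex. It had 1.65, 2.57 and 3.71 CPM in diabetic LXA4 cortex, against 1.14, 3.82 and 6.76 CPM in nondiabetic vehicle cortex, and the log2 difference was −0.39 (SE 0.299, adjusted p = 0.432). Diabetic vehicle cortex averaged 7.57 ± 0.93 CPM, higher than nondiabetic vehicle by 1.04 (adjusted p = 0.0259), and diabetic LXA4 cortex was lower than diabetic vehicle by a tested difference of −1.43 (adjusted p = 0.0242). The difference from diabetic vehicle kept its sign in the 12 fits without 1 library (−1.53 to −1.37) but missed the threshold in 3, with adjusted p-values of 0.0531, 0.0722 and 0.0505 without the second, the third and the fifth diabetic vehicle library. That of diabetic vehicle from nondiabetic vehicle missed it in 2, at 0.0606 without CE3 and 0.0566 without the fifth diabetic vehicle library. The corepressors of Egr1 did not pass the threshold, with Nab1 at −0.08 (adjusted p = 0.677) and Nab2 at 0.02 (adjusted p = 0.955), and both signs turned in fits without DL6. Of 26 genes described as EGR1 targets, 3 were higher and 0 lower by edgeR, a share of 11.5% against 8.71% of all genes, with a median of 0.06. Of 24 immediate early genes, 2 were higher and 0 lower by edgeR, a share of 8.33% against 8.71% of all genes. They were Btg2, an antiproliferative p53 target (log2 0.56, adjusted p = 0.00851), and Ier5 (log2 1.41, adjusted p = 0.0371). Ier5 was at 76.5 CPM in DL6 and had an adjusted p of 0.597 without it and 0.091 without DL6 and CE3 (log2 0.38). The call of Ier5 was lost in 5 of the 12 fits without 1 library. The list's count of 2 was 1 to 5 when 1 library was left out, 5 without DL6 and CE3, and 0 in the fit of the 12 libraries alone.

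Per2, a core clock repressor, averaged 93 CPM in diabetic LXA4, 43 CPM in diabetic vehicle and 62.7 CPM in nondiabetic vehicle cortex. It was higher in diabetic LXA4 than in diabetic vehicle by 1.12 (adjusted p = 0.0405). That call was lost in 8 of the 12 fits without 1 library, with adjusted p-values up to 0.134, without the third diabetic vehicle library, and the difference was 1.26 (adjusted p = 0.0122) without DL6 and CE3. The difference of Per2 from nondiabetic vehicle was 0.58 (adjusted p = 0.135), or 0.78 (adjusted p = 0.0435) without both. The median difference of the 14 core clock genes from nondiabetic vehicle was 0.24. The time of day of tissue collection is not given in the sources used here, and its part in these differences was not tested.

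A comparison that shares no library with the main one, diabetic vehicle against nondiabetic LXA4 cortex, called 2428 genes (15.4%). Of these, 739 were also called between diabetic LXA4 and nondiabetic vehicle cortex, which is 53.9% of the 1370 and 30.4% of the 2428. All 739 had the same direction in both, with 388 higher and 351 lower in the diabetic libraries.

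In each of the other cell type lists 0 to 3 members were called, and the medians ran from −0.66 to 0.72. Over all genes the share called was 8.71%. Of 22 podocyte markers 3 were higher (13.6%), with a median of 0.25, led by Thsd7a (log2 0.34, adjusted p = 0.0219, and 0.0695 without CE3). The podocyte count of 3 was 1 without the first, the fifth or the sixth nondiabetic vehicle library. It was 4 without DL6 and CE3, and 0 in the fit of the 12 libraries alone. Nphs1 (nephrin), of the slit diaphragm, rose by 0.54 (adjusted p = 0.0309, lost in 5 of the 12 fits without 1 library), and Cdkn1c was at 78.4 CPM in DL6 and had an adjusted p of 0.263 without it (log2 1.38, adjusted p = 0.0281 with all libraries, and 0.56 and 0.00989 without both). Of 18 markers of smooth muscle, pericytes and juxtaglomerular cells 3 were higher (16.7%), with a median of 0.31, and Myh11, a smooth muscle myosin, had 16.6, 22.3 and 37.1 CPM in diabetic LXA4 cortex, against 8.61, 11.6 and 17.5 CPM in nondiabetic vehicle cortex (log2 1.03, SE 0.221, adjusted p = 0.00414). Rgs5, a pericyte marker, rose by 0.61 (adjusted p = 0.016). The fit of the 12 libraries alone called 0 of these 18 markers. Of 26 endothelial markers 1 was lower, Esm1 (log2 −1.09, adjusted p = 0.0176), with DL6 at 19.4 CPM above the other diabetic LXA4 libraries and an adjusted p of 0.0565 without the sixth nondiabetic vehicle library.

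The 19 adipocyte and brown fat markers had a median of 0.72, and 13 had a positive difference, most of them at low levels. Adipoq (adiponectin) averaged 0.797 CPM in diabetic LXA4, 0.432 CPM in diabetic vehicle and 0.325 CPM in nondiabetic vehicle cortex (log2 1.49, adjusted p = 0.561). By edgeR 1 of the 19 was called, Lpl (lipoprotein lipase), which was lower (log2 −0.97, adjusted p = 0.0267). Its adjusted p was 0.0505 without DL6 and CE3, and the call was lost in 4 of the 12 fits without 1 library, at 0.0547 to 0.0702. The summed level of the list was 339 to 845 CPM in diabetic LXA4 cortex, against 839 to 1237 CPM in nondiabetic vehicle cortex. The 11 liver and pancreas markers had a median of −0.66, with 1 positive difference, and Apoh, given above, was the member called lower. The 16 urothelium and inner medulla markers had a median of 0.35, with 217 to 948 CPM in sum in diabetic LXA4 cortex, against 590 to 1025 CPM in nondiabetic vehicle cortex. By edgeR 0 of 22 collecting duct, 0 of 24 myeloid, 0 of 9 erythroid and 0 of 16 urothelium and inner medulla markers were called.

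**Figure D5:**
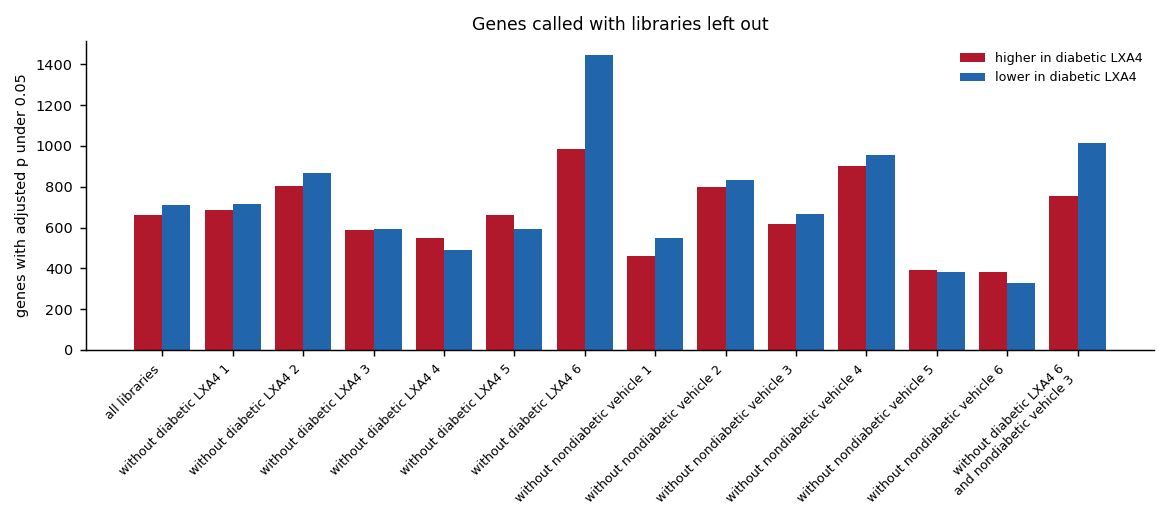
Number of genes called higher (red) and lower (blue) in diabetic LXA4 against nondiabetic vehicle cortex with all libraries, with each of the 12 libraries left out in turn, and with DL6 and CE3 left out together. The totals run from 708 without the sixth nondiabetic vehicle library to 2431 without DL6, and the total with all libraries is 1370.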

How the data were processed

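Libraries were directional, prepared from 200 ng of total RNA of kidney cortex after removal of ribosomal RNA (per the labels' protocols). The deposited table holds whole-number raw counts of 36 libraries in 6 groups, which were taken from the labels. Per the submitters' processing notes, the tools were bcl2fastq 2.17.1.14, STAR and featureCounts and the build was GRCm38. Annotation, strand setting and other tool versions were not given in the sources used here. Genes in the table have at least 370 counts over all libraries.

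Counts were tested with the quasi-likelihood test of edgeR 4.0.16 (R 4.3.3), with TMM factors, the filter of edgeR on low counts, 1 mean per group over all 36 libraries, and Benjamini-Hochberg adjustment over all genes tested, at a threshold of 0.05. CPM are relative to TMM-scaled totals. Depth is taken into account by the count model, where a shallow library weighs less mainly for genes with few counts. The main fit used no quality weights, and the voom fit gave DL6 a weight of 0.0641. No pair of libraries held identical counts. Alternatives used DESeq2 1.42.0 and limma 3.58.1 (voom). Coordinates of 15697 genes are from GENCODE M21, and promoter windows from RefSeq.

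The comparison, the 42 lists and the tests were chosen with earlier results of these data known. Genes were named by rule: Apoe, Egr1 and its partners, the 15 highest and 15 lowest differences among genes averaging at least 1 CPM and changed the same way in all 6 diabetic LXA4 libraries, the 10 smallest p-values, and up to 4 called members of each list, which gave 132 genes. Other list members named, such as Msmo1, Hspa5 and Per2, were chosen after their values were seen. Egr2 and Egr3 were not analysed here, and the results of a few genes that these rules name or these lists hold are not reported here.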

Additional observations from a re-analysis of the deposited data

Results flagged for a closer look

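Among the values of the named genes and of the library measures, 260 groups of 6 libraries were examined for a library far from the others. In these groups 49 values were found, of which 27 were in DL6 and 13 in CE3. Chance flags about 1 in 20 groups of independent, normally distributed values. That rate does not carry over here, since CPM were not log-transformed, groups share libraries and genes were partly chosen by their values. DL6 stood far from the other diabetic LXA4 libraries with 56.9% of counts from structural RNA genes and 0.394% from mitochondrial ribosomal RNA, and CE3 far from the other nondiabetic vehicle libraries with 17.7% from structural RNA genes.

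DL6 was far above the other diabetic LXA4 libraries for Ccng1 at 406 CPM, Phlda3 at 51.9 CPM, Bbc3 at 13.9 CPM, Col6a1 at 60.7 CPM, Tap1 at 46.3 CPM, Serpine2 at 24.8 CPM, Esm1 at 19.4 CPM, Ier5 at 76.5 CPM, Cdkn1c at 78.4 CPM, Nab2 at 15.8 CPM, Eln at 50.5 CPM, Anxa3 at 49.8 CPM, Bax at 20.3 CPM and Fads2 at 90.7 CPM. It was far above them for the mitochondrial gene mt-Nd6 too, at 2652 CPM against 309 CPM in the next library, and the log2 difference of mt-Nd6 from nondiabetic vehicle was 1.73 (adjusted p = 0.0108, edgeR), with an adjusted p of 0.184 without DL6 and 0.0893 without DL6 and CE3 (log2 0.42). DL6 was far below the others for Eda2r at 0.945 CPM, Cyp2j5 at 276 CPM, Nab1 at 20.5 CPM, Fas at 8.26 CPM, Idi1 at 4.72 CPM, Fads1 at 23.1 CPM, Mdh1 at 196 CPM, G6pc3 at 12.8 CPM, Prdx1 at 104 CPM and Setd7 at 27.9 CPM.

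CE3 was far above the other nondiabetic vehicle libraries for Mdm2 at 71.3 CPM, Aen at 20.9 CPM, Ccng1 at 185 CPM, Phlda3 at 5.61 CPM, Ndufa8 at 134 CPM, Nphs1 at 19.9 CPM, Ier5 at 12 CPM, Cdkn1c at 14.4 CPM and Bax at 25.9 CPM. It was far below them for Eda2r at 0.458 CPM, Cxcl1 at 0 CPM and Thsd7a at 36.8 CPM.

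In the other libraries, the fifth diabetic LXA4 library stood apart for Irf7 at 44 CPM, Osr2 at 3.03 CPM and Plcd4 at 6.75 CPM, and the second diabetic LXA4 library for Lrp2 at 5352 CPM. The second nondiabetic vehicle library stood apart for Gtse1 at 1.02 CPM, Mx2 at 5.18 CPM and Usp18 at 7.26 CPM, and the fifth for Fn1 at 32.1 CPM and Slc5a10 at 205 CPM.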

How the results depend on the processing

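The main count of 1370 genes stayed within 1.5 times with DESeq2-style size factors (1359), no filter (1369), a mean of at least 5 CPM (1085), structural RNA genes left out (1418), DL6 and CE3 left out (1770) and DESeq2 (1982). It was 120 with only the groups compared and 3757 with voom and quality weights, and 708 to 2431 with 1 library left out. The share of calls that were higher was 48.2% with all libraries, 42.6% without DL6 and CE3, 40.6% without DL6 and 71.7% with only the groups compared. Of the 128 named genes that were called, 104 remained called without DL6 and CE3, 33 of 126 with only the groups compared, and 80 when any 1 library was left out. For diabetic vehicle against nondiabetic vehicle, the count of 881 was 443 at a mean of at least 5 CPM, 1399 without DL6 and CE3, 342 with only the groups compared, 1330 with DESeq2, 2221 with voom, and 441 to 1338 with 1 library left out. For diabetic LXA4 against diabetic vehicle, the count of 56 was 93 without DL6 and CE3, 1 with only the groups compared, 231 with DESeq2, 172 with voom, and 0 to 88 with 1 library left out. For diabetic vehicle against nondiabetic LXA4, the count of 2428 was 1544 at a mean of at least 5 CPM, 4938 without DL6 and CE3, 4446 with only the groups compared, 5288 with voom, and 1443 to 2949 with 1 library left out. Nab1 turned to 0.01 without DL6 and CE3, 0.02 with voom and 0.04 without DL6, and Nab2 turned to −0.00 with voom and ran from −0.12 to 0.15 with 1 library left out. The cause of these shifts was not tested, other than that fits of 2 groups hold fewer libraries and fits at 5 CPM fewer genes. Same-numbered libraries of the main comparison correlated at 0.25, −0.18, −0.31, 0.17, −0.05 and −0.12 in their deviations from the group means, so the numbers were not taken as pairs; with the replicate block the main count was 1303 and that of diabetic LXA4 against diabetic vehicle was 28. Depth limits the genes under about 1 CPM in the shallowest library, DL6.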

Other observations

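The shares of members called are given here beside 8.71% of all genes. Of 39 histone lysine methyltransferases and demethylases, 3 were higher and 0 lower by edgeR (7.69%), with a median of 0.10. Setd7, a methyltransferase of histone H3 studied in diabetic vascular cells, averaged 39.7 CPM in diabetic LXA4, 38.7 CPM in diabetic vehicle and 31.2 CPM in nondiabetic vehicle cortex (log2 0.36, adjusted p = 0.00879). Of 32 NRF2 target genes, 4 were lower and 1 higher (15.6%), with a median of −0.08, and 2 were lower without the fifth or the sixth nondiabetic vehicle library. Diabetic vehicle against nondiabetic vehicle cortex gave 4 higher and 1 lower, with a median of 0.15. Txn1 (thioredoxin) had a log2 difference of −0.44 (adjusted p = 0.00879), and of −0.27 (adjusted p = 0.0338) without DL6 and CE3. Prdx1, a peroxiredoxin, fell by 0.56 (adjusted p = 0.0209, or 0.054 and 0.0632 without the fifth and the sixth nondiabetic vehicle library), while Ephx1 was the member that rose in diabetic LXA4 cortex. Of 23 fatty acid synthesis genes, 3 were lower and 0 higher by edgeR (13%), the desaturases Fads1 (log2 −0.43, adjusted p = 0.0249) and Fads2 (log2 −0.40, adjusted p = 0.0276) and the malic enzyme gene Me1 (log2 −0.48, adjusted p = 0.0364). None of these 3 was called without the first or without the sixth nondiabetic vehicle library, and the adjusted p of Me1 was 0.0664 without DL6 and CE3.

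Of 27 glucose-responsive and glycolytic genes 3 were called (11.1%). Ldha (log2 −0.36, adjusted p = 0.0172) and Tpi1 (log2 −0.40, adjusted p = 0.0353) were lower, and Mlxip (log2 0.27, adjusted p = 0.0339) was higher. Without DL6 and CE3 the adjusted p was 0.0846 for Tpi1 and 0.06 for Mlxip, and 1 member of the list, Ldha, was called. None of the 3 was called without the fifth nondiabetic vehicle library or without the sixth, when the adjusted p of Ldha was 0.0616 and 0.0607. Of 25 gluconeogenesis and glucose transport genes 3 were called (12%). Slc5a10, a mannose and fructose transporter of the proximal tubule, was higher at 241 CPM in diabetic LXA4, 223 CPM in diabetic vehicle and 166 CPM in nondiabetic vehicle cortex (log2 0.54, adjusted p = 0.0208), and Mdh1 and G6pc3 were lower. The adjusted p of G6pc3 was 0.0508 without DL6 and CE3, and none of the 3 was called without the sixth nondiabetic vehicle library. Slc5a10 shares 206 exon bases with Fam83g on the opposite strand. Of 35 TGF-beta and BMP genes 1 was called (2.86%), the ubiquitin ligase gene Smurf1 (log2 0.31, adjusted p = 0.0156, or 0.053 without the fifth nondiabetic vehicle library). Of 15 T, NK and B cell markers, 2 were higher (13.3%) at low levels, with a median of 0.59. Cd247, the zeta chain of the T cell receptor complex, which shares 2136 exon bases with Pou2f1 on the opposite strand, averaged 2.47 CPM in diabetic LXA4, 2.55 CPM in diabetic vehicle and 1.39 CPM in nondiabetic vehicle cortex (log2 0.85, adjusted p = 0.00439).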
